A study of Mus musculus with 30 samples.

Results

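The genes described here are those of the striatum whose response to ganciclovir (GCV) differed between mice with and without the NestinTK transgene. They were found in 15 of the 30 libraries of the series, the striatum libraries of 15 mice, by fitting all 4 groups together and taking the GCV minus PBS difference in NestinTK+ mice minus the GCV minus PBS difference in NestinTK- mice. Of 50508 genes in the table, 15419 had a level above 1 CPM, counts scaled to the normalised size of each library, in at least 3 libraries and were tested. A gene is called higher when this difference of differences, the interaction, was positive, at least 2-fold and had an unadjusted p of at most 0.01, and lower when it was negative by the same thresholds. By this rule 328 genes were called higher, 2.13% of those tested, and 177 were called lower, 1.15%.

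All mice were of the C57Bl/6 strain by their labels and adult by the methods, which give an age of 6 to 8 weeks for C57Bl/6 mice and none for the transgenic line. NestinTK+ mice carry a viral thymidine kinase driven by the second-intron enhancer of the Nestin gene, so that dividing Nestin-expressing cells die when they convert GCV. NestinTK- mice are littermates without the transgene. GCV or the PBS vehicle was delivered for 4 weeks from a minipump under the skin, to 5 NestinTK+ GCV mice, 4 NestinTK+ PBS mice, 3 NestinTK- GCV mice and 3 NestinTK- PBS mice. The NestinTK+ GCV group is the only one in which stem cells are ablated, and the other groups are its controls. Each library is a different mouse, numbered below within its group.

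The adult subventricular zone (SVZ) lines the lateral ventricle beside the striatum and holds neural stem cells, whose newborn neuroblasts migrate to the olfactory bulb. The striatum itself is made up mostly of GABAergic medium spiny neurons, with interneurons and glia, and receives its glutamate input from cortex and thalamus. A gene responding to ablation would have NestinTK+ GCV mice apart from all 3 control groups. The same interaction value arises when one of the control groups is the one apart, so the levels of the 4 groups are given for the genes described in most detail.

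Library totals ran from 2626962 to 3371033 counts in NestinTK+ GCV, 2780471 to 4636036 in NestinTK+ PBS, 3755752 to 4391021 in NestinTK- GCV and 4121317 to 4693441 in NestinTK- PBS. The NestinTK+ GCV libraries were therefore all shallower than those of both NestinTK- groups, and a gene at 1 CPM rests on a few counts in any of them. The 26 genes of shared spiny neuron identity summed to 15400 to 20100 CPM in 14 libraries and to 8540 CPM in NestinTK+ PBS mouse 4. In that mouse the choroid plexus list summed to 1470 CPM, against 15.5 to 59.3 CPM in the others. NestinTK- PBS mouse 2 had the highest total and the fewest genes with a count, 15735. Fewer cells of a type and less RNA per cell cannot be told apart in such bulk tissue.

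At an adjusted p (Benjamini-Hochberg over all tested genes, edgeR quasi-likelihood test) under 0.05, 126 genes remained, 0.817% of those tested, of which 81 were higher and 45 lower. The median interaction of all tested genes was 0.01 on the log2 scale. When libraries were scaled by their totals alone that median was 0.0953, and higher genes made up 77% of the calls in place of 65%. GCV against PBS called 208 genes in NestinTK+ mice (1.35%) and 380 genes in NestinTK- mice (2.46%), which lack the viral thymidine kinase. In the NestinTK- mice 278 of the 380 were lower under GCV. Among the 505 interaction genes, 224 were called in the NestinTK- comparison and 49 in the NestinTK+ comparison, and the NestinTK- difference was the larger in 401, which is 79.4% of them against 60.7% of all tested genes. With the log2 library total as a covariate 213 genes were called higher and 0 passed the adjusted threshold.

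**Figure D1:**
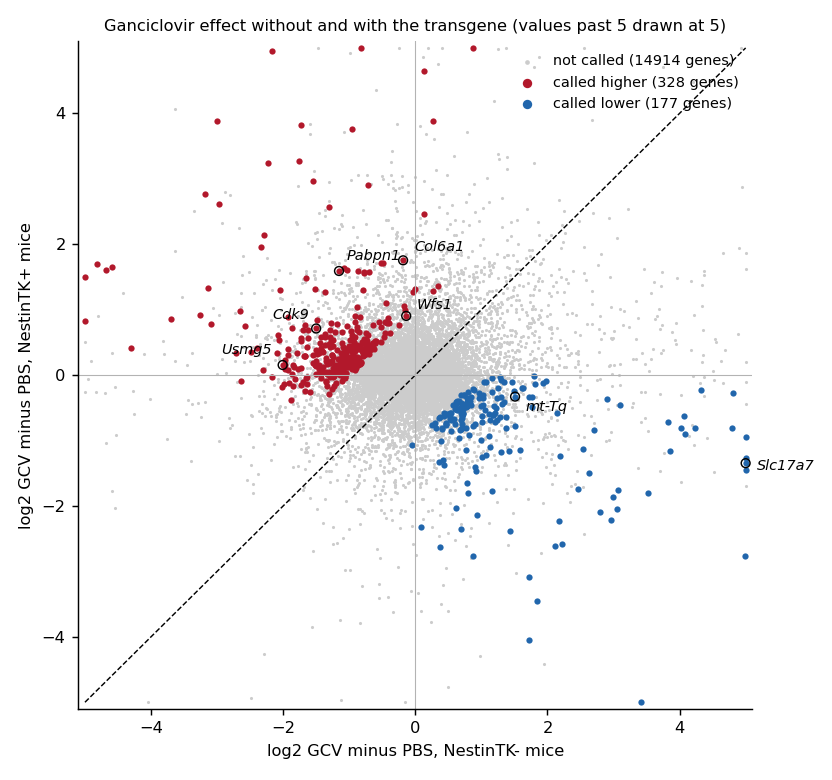
Log2 GCV minus PBS of each tested gene in NestinTK- mice (x axis) and in NestinTK+ mice (y axis), with the 328 genes called higher and the 177 called lower coloured and values past 5 drawn at 5. The called genes lie farther from 0 along the NestinTK- axis than along the NestinTK+ axis in 401 of 505 cases.

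For each gene the group whose mean log2 CPM lay farthest from the mean of the other 3 was taken as its odd group. Among the 328 higher genes the odd group was NestinTK- GCV in 259 (79%), NestinTK+ GCV in 33 (10.1%), NestinTK+ PBS in 20 and NestinTK- PBS in 16. Over all tested genes NestinTK- GCV was the odd group in 37.6% and NestinTK+ GCV in 22%. The 177 lower genes were spread more widely, with NestinTK- PBS odd in 60 (33.9%), NestinTK- GCV in 57 (32.2%), NestinTK+ PBS in 34 (19.2%) and NestinTK+ GCV in 26 (14.7%). The 3 control groups, which an ablation gene would leave alike, differed among themselves at p of at most 0.01 in 283 of the 505 interaction genes (56%), against 5.62% of all tested genes. NestinTK+ GCV against the mean of the 3 controls called 151 genes (0.979%), and 33 of these were among the 505. The NestinTK- GCV libraries lay all above or all below every other library in 111 of the 505 genes. Over all tested genes they did so in 490 (3.18%). For the NestinTK+ GCV libraries it was 9 of the 505, and 82 (0.532%) of all tested genes. A group of 3 mice lies wholly apart by chance more often than a group of 5, so the counts of these groups are not comparable. The odd-group and larger-difference counts also compare groups of unlike size. Since these comparisons share samples with the interaction, the counts describe where the interaction came from and are not separate evidence for it.

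**Figure D2:**
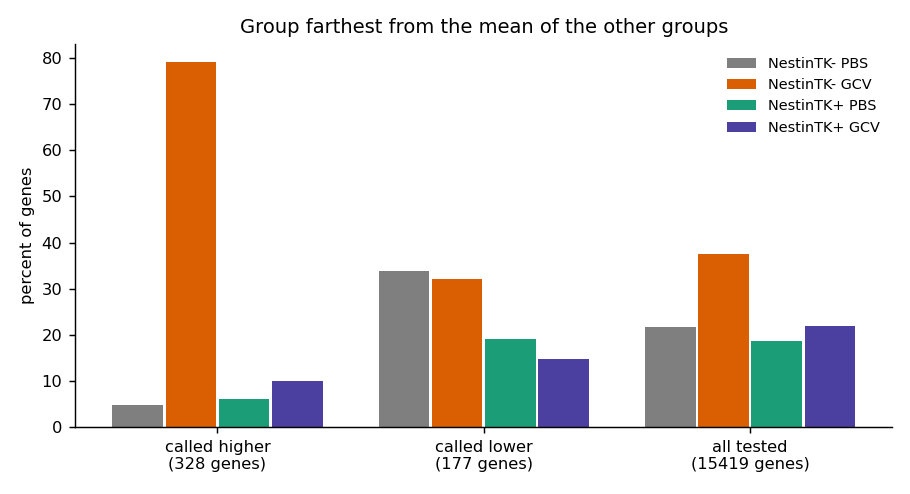
Percent of genes (y axis) for which each of the 4 groups lay farthest from the mean of the other groups, for genes called higher, genes called lower and all tested genes, as bars. NestinTK- GCV takes 79% of the higher genes against 37.6% of all tested genes, and NestinTK+ GCV takes 10.1%.

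The gene with the lowest p was Cdk9, the kinase of the elongation factor P-TEFb that releases paused RNA polymerase II (chr2:32705784-32713076, minus strand, GRCm38). Its level was 40.9, 40.6, 31.8, 35.7 and 31.2 CPM in NestinTK+ GCV mice, 22.8, 24.4, 18.9 and 22.2 in NestinTK+ PBS, 12.5, 6.26 and 13.5 in NestinTK- GCV, and 31.9, 24 and 35.6 in NestinTK- PBS. Under GCV Cdk9 was thus higher in every NestinTK+ mouse and lower in every NestinTK- mouse than in PBS mice of the same genotype, with no overlap in either genotype. The differences were 0.71 and -1.5 on the log2 scale, and the interaction was 2.21 (SE 0.32, adjusted p = 0.00558, edgeR). Only 51 tested genes (0.331%) had GCV and PBS libraries free of overlap in both genotypes with opposite directions, and they included 10 of the higher and 13 of the lower genes.

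Several of those genes act, like Cdk9, in transcription and pre-mRNA splicing. Srsf1, a serine/arginine-rich splicing factor (chr11:88047373-88053755, plus strand), read 216, 181, 182, 165 and 194 CPM in NestinTK+ GCV, 145, 136, 141 and 149 in NestinTK+ PBS, 94.1, 70.6 and 107 in NestinTK- GCV, and 166, 127 and 200 in NestinTK- PBS. Its groups were ordered as for Cdk9 and did not overlap within either genotype (interaction 1.25, SE 0.22, adjusted p = 0.0211). Srsf2, a related factor, averaged 137 CPM in NestinTK+ GCV, 105 in NestinTK+ PBS, 73.7 in NestinTK- GCV and 119 in NestinTK- PBS (interaction 1.09). Without NestinTK- GCV mouse 2 its interaction was 0.99, just under 2-fold. Snrnp70, the 70-kDa protein of the U1 small nuclear ribonucleoprotein, averaged 389, 243, 151 and 298 CPM in the same order of groups (interaction 1.66, SE 0.30, adjusted p = 0.0211). Its NestinTK- PBS value in NestinTK- PBS mouse 2, 163 CPM, fell within the NestinTK- GCV range of 109 to 190 CPM. Gtf2h1, a subunit of the general transcription factor TFIIH, and Ice1, of the complex that elongates small nuclear RNA transcripts, were also called higher, at 1.33 and 1.57. Among the genes called lower, Snrpn, an imprinted neuronal splicing protein, averaged 141 CPM in NestinTK+ GCV, 210 in NestinTK+ PBS, 217 in NestinTK- GCV and 151 in NestinTK- PBS (interaction -1.10). Prmt1, an arginine methyltransferase whose substrates include splicing proteins, was lower as well, at -1.31 (adjusted p = 0.0238). A list of 62 tested splicing factors, assembled by family name after values were seen, held 7 higher and 3 lower genes with a median of 0.23. The number of higher members ranged from 3 without NestinTK- GCV mouse 2 to 10 without NestinTK- PBS mouse 2.

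Genes of the ribosome made up another group. Rpl30, a protein of the large subunit (chr15:34440505-34443640, minus strand), read 351, 323, 295, 296 and 189 CPM in NestinTK+ GCV, 224, 183, 283 and 249 in NestinTK+ PBS, 91.1, 70.3 and 121 in NestinTK- GCV, and 361, 121 and 343 in NestinTK- PBS. The GCV and PBS mice overlapped in NestinTK+ animals, and in NestinTK- animals NestinTK- PBS mouse 2, at 121 CPM, was level with the highest GCV mouse (interaction 1.85, SE 0.37, adjusted p = 0.0238). Rps27a, of the small subunit, averaged 58.3 CPM in NestinTK- GCV and 114 to 156 CPM in the other groups, with an interaction of 1.70. Its NestinTK- PBS mouse 2, at 74.8 CPM, was below NestinTK- GCV mouse 3 at 77.2. Of 78 tested cytosolic ribosomal protein genes, a list also set after values were seen, 12 were called higher and 0 lower, with a median of 0.39. Higher members numbered 7 without NestinTK- PBS mouse 1, and 17 without NestinTK- GCV mouse 3 or without NestinTK- PBS mouse 2. The mean log2 CPM over the list was 6.59 to 6.72 in NestinTK- GCV, 6.93 to 7.07 in NestinTK+ GCV, 6.71 to 7.02 in NestinTK+ PBS and 6.73 to 7.06 in NestinTK- PBS. Summed over the list, however, the groups overlapped, at 15400 to 17100 CPM in NestinTK- GCV and 16900 to 18300 in NestinTK+ GCV. Many ribosomal protein genes have near-identical processed pseudogenes, so reads of a member may have been split between copies. Eif4a2, an RNA helicase of translation initiation, went the same way (interaction 1.79, adjusted p = 0.0211), at 45.1 CPM in NestinTK- GCV and 102 to 128 CPM in the other groups.

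Some nuclear-encoded subunits of the respiratory chain and ATP synthase also had NestinTK- GCV as the low group, while the median of their list was near 0. Ndufa1, of complex I, averaged 472 CPM in NestinTK+ GCV, 421 in NestinTK+ PBS, 191 in NestinTK- GCV and 484 in NestinTK- PBS (interaction 1.51, SE 0.31, adjusted p = 0.0266). Cox7c, of cytochrome c oxidase, averaged 268, 251, 105 and 290 CPM (interaction 1.55), and Usmg5, an ATP synthase subunit, 339, 305, 81.5 and 329 CPM (interaction 2.16). For Usmg5 NestinTK- PBS mouse 2, at 136 CPM, was below NestinTK- GCV mouse 3 at 160. For all 3 genes the NestinTK- GCV group was the low one, and the GCV and PBS differences in NestinTK+ mice were 0.09 to 0.16. Of 78 tested genes in the list 9 were called higher and 0 lower, with a median of -0.085, which was 0.0146 with library totals alone. Leaving out NestinTK- GCV mouse 2 left 5 of the calls. The glycolytic enzyme gene Gapdh, often used as a reference transcript, was also called higher, at 1.24 (adjusted p = 0.0718). It averaged 35.1 CPM in NestinTK- GCV and 89.4 to 103 CPM elsewhere.

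The mitochondrial transfer RNAs went the other way. The glutamine tRNA mt-Tq (chrM:3772-3842, minus strand) read 59.2, 72.9, 87.3, 118 and 81.4 CPM in NestinTK+ GCV, 90.8, 142, 117 and 72.6 in NestinTK+ PBS, 154, 209 and 181 in NestinTK- GCV, and 49.8, 83.5 and 57.4 in NestinTK- PBS. All 3 NestinTK- GCV mice stood above every other mouse (interaction -1.84, SE 0.31, adjusted p = 0.0211). Of 13 tested mitochondrial tRNAs, 5 were called lower and 0 higher (mt-Tq, mt-Ta, mt-Tl1, mt-Tm and mt-Tc), and the median was -1.37. The list, set after values were seen, summed to 1040 to 1160 CPM in NestinTK- GCV, 417 to 782 in NestinTK+ GCV, 499 to 837 in NestinTK+ PBS and 366 to 694 in NestinTK- PBS. The 5 calls held with each library left out in turn. None of the 9 tested mitochondrially encoded messenger and ribosomal transcripts was called, and all mitochondrial genes together took 6.04 to 8.27% of counts in every library. These libraries are primed on poly(A) and read the 3′ end, so the level of a tRNA in them need not follow its amount in the cell.

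**Figure D3:**
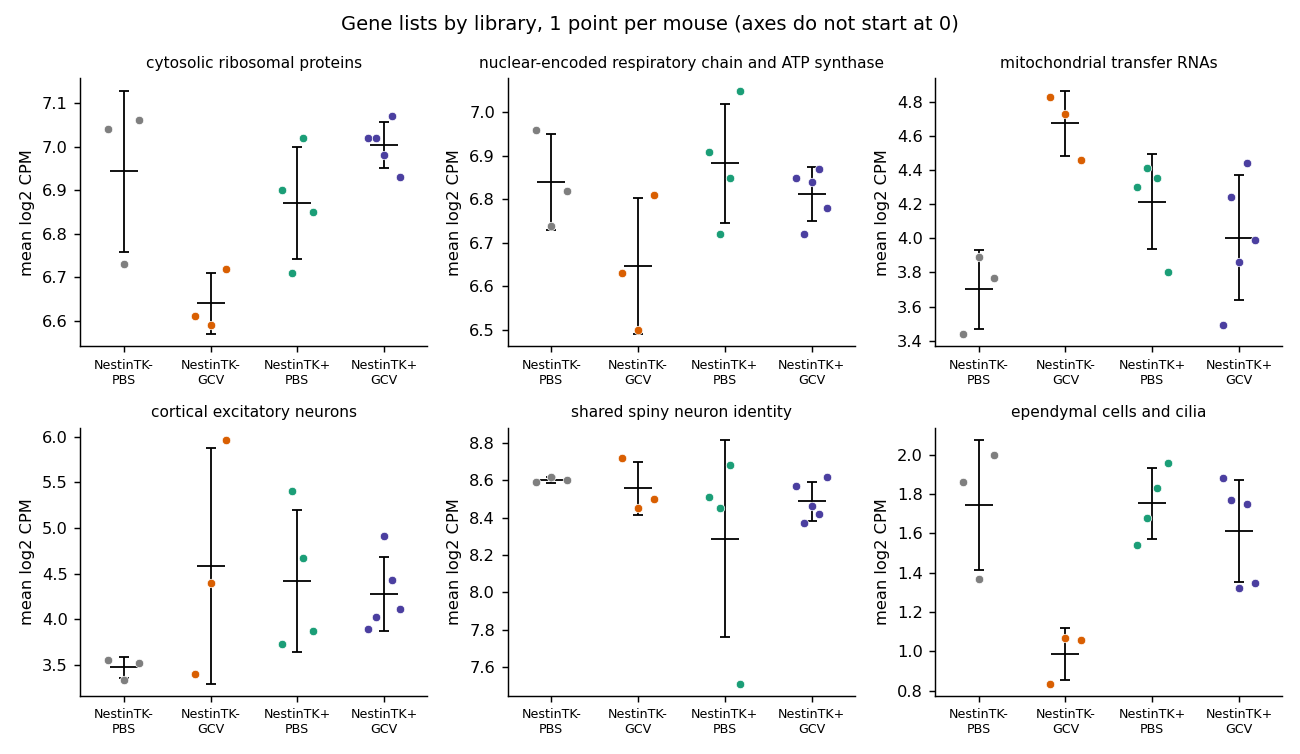
Mean log2 CPM (y axes, not starting at 0) of gene lists, 1 point per mouse, by group, with the group mean and SD in black. The NestinTK- GCV mice are the lowest for ribosomal proteins, apart from the overlap with NestinTK+ PBS mouse 2 at 6.71, and the highest for mitochondrial tRNAs.

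The other genes called lower had varied roles. The named ones with the lowest p were Mpi, Peg13, Ap2a2, Sh3gl2, Cplx3, Cacng7, Cdk16, Ramp2, Rims4 and Tmem9, beside Prmt1 and Snrpn above. Mpi, phosphomannose isomerase, which links glycolysis to protein glycosylation (chr9:57544256-57552763, minus strand), read 14.4, 16.0, 10.4, 20.1 and 24.3 CPM in NestinTK+ GCV, 23.4, 29.9, 29.2 and 20.3 in NestinTK+ PBS, 31.3, 42.0 and 40.4 in NestinTK- GCV, and 14.3, 16.8 and 18.2 in NestinTK- PBS. The NestinTK- GCV mice were above all others, while GCV and PBS overlapped in NestinTK+ mice (interaction -1.79, SE 0.33, adjusted p = 0.0211). Sh3gl2, the endophilin of synaptic vesicle endocytosis, averaged 120 CPM in NestinTK+ GCV, 165 in NestinTK+ PBS, 198 in NestinTK- GCV and 97.3 in NestinTK- PBS (interaction -1.48). Dnm1, the neuronal dynamin that pinches vesicles off, which was named after its values were seen, was called at -1.02 and lost the call, at values from -0.90 to -0.99, in 7 of the 15 fits that left out a library. Ap2a2, of the clathrin adaptor AP-2, was likewise at the 2-fold edge, at -1.0, and 7 of those fits put it at -0.94 to -0.99. Rims4, a presynaptic active-zone protein, averaged 156, 238, 267 and 163 CPM across NestinTK+ GCV, NestinTK+ PBS, NestinTK- GCV and NestinTK- PBS (interaction -1.32). Cacng7, an auxiliary subunit of AMPA receptors, averaged 118, 188, 194 and 129 CPM in that order (interaction -1.25, adjusted p = 0.0238), and its GCV and PBS mice did not overlap in either genotype. Peg13, an imprinted noncoding RNA of brain, was lower at -1.14, with NestinTK- GCV the odd group. Gm42418, a predicted noncoding gene that alone took 4.07 to 10.5% of each library, averaged 48120 CPM in NestinTK+ GCV, 84960 in NestinTK+ PBS, 75250 in NestinTK- GCV and 56810 in NestinTK- PBS (interaction -1.23, adjusted p = 0.0363).

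Large negative interaction values were found for genes of cortical excitatory neurons, which striatal tissue should largely lack. Slc17a7, the vesicular glutamate transporter VGLUT1 (chr7:45163949-45176142, plus strand), read 5.64, 22.9, 78.4, 34.6 and 27.3 CPM in NestinTK+ GCV, 6.82, 212, 40.7 and 88.4 in NestinTK+ PBS, 4.62, 58.6 and 412 in NestinTK- GCV, and 6.91, 2.62 and 4.6 in NestinTK- PBS. The value ranged widely between mice of every group but NestinTK- PBS, in which all 3 mice were low, and NestinTK- GCV mouse 1 was as low as they were. Its interaction was -6.42 (SE 1.35, adjusted p = 0.0272, edgeR), and the limma-voom value of -4.36 did not reach the p threshold. Of 16 tested genes of the list 6 were called lower and 0 higher (Slc17a7, Neurod6, Neurod2, Tbr1, Rorb and Nptx1), with a median of -1.25. Only 2 calls were left without NestinTK- GCV mouse 3, in which the list averaged 5.96 on the log2 CPM scale, against 3.34 to 5.40 in all other libraries. Neurod6, a transcription factor of cortical pyramidal neurons, was at 0 CPM in all 3 NestinTK- PBS mice and in NestinTK+ PBS mouse 4, and reached 42.1 CPM in NestinTK+ PBS mouse 2 and 41.1 CPM in NestinTK- GCV mouse 3. With the list level of each library as a covariate, added after seeing the data, the Tbr1 and Neurod2 interactions were 0.31 and 0.90. Their unadjusted p values were 0.663 and 0.258 (edgeR). Both genes belong to the list, so the covariate takes up part of their own differences and cannot test them. With that covariate 2 genes of the list were called. Cplx3, a complexin, and Cck, a neuropeptide of cortical and other neurons, were also high in single mice, Cck at 217 CPM in NestinTK- GCV mouse 3, 187 in NestinTK+ PBS mouse 4 and 122 in NestinTK+ PBS mouse 2 against 11.1 to 53.9 in the remaining 12. The interactions were -4.85 for Cplx3 and -4.13 for Cck. How much of each dissected sample was cortex was not tested.

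Regulators of transcription and growth signals were among the higher genes. Id4, an inhibitor of DNA binding expressed in astrocytes and quiescent stem cells (chr13:48261228-48266026, plus strand), read 400, 310, 297, 254 and 196 CPM in NestinTK+ GCV, 259, 204, 248 and 179 in NestinTK+ PBS, 78.0, 88.8 and 120 in NestinTK- GCV, and 351, 139 and 327 in NestinTK- PBS. The NestinTK- GCV mice were below all others, and the NestinTK+ groups overlapped (interaction 1.90, SE 0.34, adjusted p = 0.0211). Cyr61, a secreted matrix protein induced as an immediate early gene, averaged 22.7 CPM in NestinTK+ GCV, 23.1 in NestinTK+ PBS, 6.67 in NestinTK- GCV and 30.1 in NestinTK- PBS (interaction 2.15, adjusted p = 0.0211). Its GCV effect was -0.03 in NestinTK+ mice and -2.17 in NestinTK- mice. Map2k1, the kinase MEK1 upstream of ERK, averaged 243, 178, 102 and 205 CPM across NestinTK+ GCV, NestinTK+ PBS, NestinTK- GCV and NestinTK- PBS (interaction 1.46). Sun1, a nuclear envelope protein that ties the nucleus to the cytoskeleton, did not overlap between GCV and PBS in either genotype (interaction 1.61, adjusted p = 0.0211). Elmo1 and Wasf3, which act on Rac and the actin cytoskeleton, were called higher at 1.41 and 1.11, with GCV effects of 0.05 and 0.16 in NestinTK+ mice and -1.36 and -0.95 in NestinTK- mice.

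**Figure D4:**
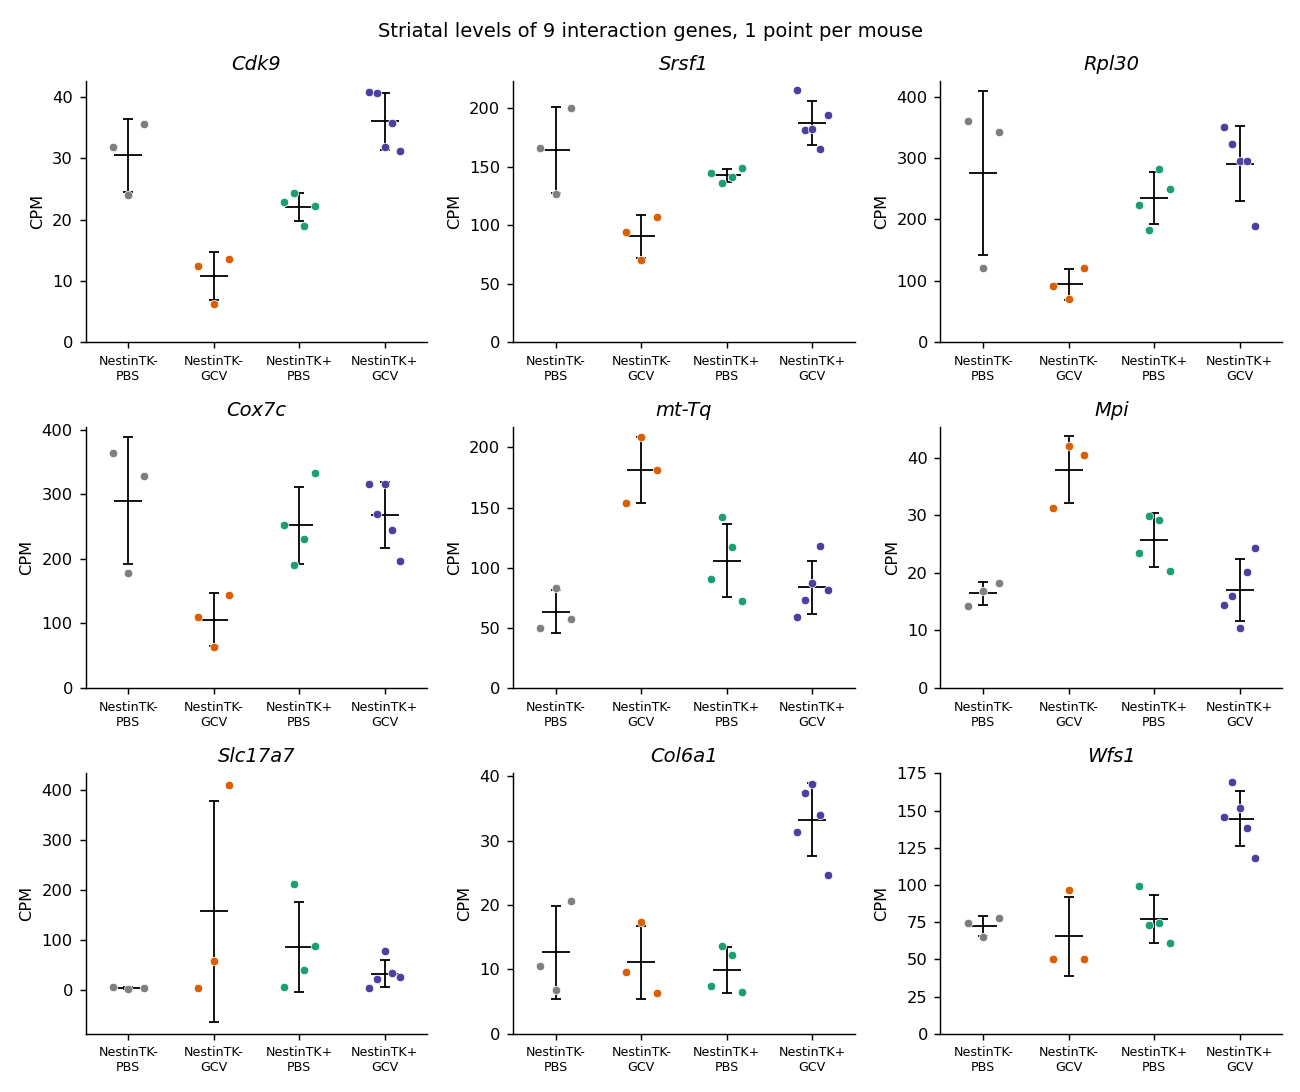
CPM (y axes) of 9 interaction genes, 1 point per mouse, in the 4 groups, with the group mean and SD in black. For Cdk9 the 5 NestinTK+ GCV mice (31.2 to 40.9 CPM) lie above the NestinTK+ PBS mice (18.9 to 24.4), and the 3 NestinTK- GCV mice (6.26 to 13.5) are the lowest.

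Among circadian clock genes Npas2, Bhlhe41 and Arntl were called higher and Rorb lower. Bhlhe41, a repressor of the clock, read 86.1 to 127 CPM in NestinTK+ GCV, 80.8 to 112 in NestinTK+ PBS, 48 to 60 in NestinTK- GCV and 59.3 to 158 in NestinTK- PBS (interaction 1.32, adjusted p = 0.0445). Its GCV effect was 0.18 in NestinTK+ mice and -1.14 in NestinTK- mice. Arntl, the clock activator BMAL1, had an interaction of 1.32 that missed the threshold without NestinTK- GCV mouse 2 or NestinTK- PBS mouse 1. Npas2, at 1.39, missed it without NestinTK- PBS mouse 3. Rorb, at -1.21, was at -0.79 without NestinTK+ PBS mouse 4, and missed the p threshold without NestinTK- PBS mouse 2. The time of day of dissection is not in the labels, and its part in these values was not tested. The 16 tested genes of ependymal cells, the ciliated lining of the ventricle, included 2 called higher, Foxj1, the regulator of motile cilia, and Rarres2. Their list mean was 0.836 to 1.07 log2 CPM in NestinTK- GCV and 1.32 to 2.00 in the other 12 libraries. Either NestinTK- GCV mouse 2 or NestinTK- PBS mouse 1, left out, took the Foxj1 call away.

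Receptors and channels contributed single genes. Of 27 tested genes of GABA receptors and inhibitory synapses, Gabbr2 and Gabra3 were called lower, at -1.51 and -1.26, and neither was without NestinTK+ PBS mouse 4, which read 198 and 79.8 CPM for them. Among 35 glutamate receptor and excitatory synapse genes, Grik5 was higher (1.39), a call lost without NestinTK- GCV mouse 1, and Grm2 was called lower but read 3.31 CPM or less in 14 mice and 6.41 in NestinTK+ PBS mouse 4. Among 38 potassium channels the inward rectifier Kcnj2 was higher, at 1.65, and Kcnj3 and Kcnj10 lower, at -1.66 and -1.01. The Kcnj3 call was lost without NestinTK- GCV mouse 3 or NestinTK- PBS mouse 1. Kcnj10, the glial channel Kir4.1, averaged 37.2 CPM in NestinTK+ GCV, 77.7 in NestinTK+ PBS, 57.7 in NestinTK- GCV and 59.6 in NestinTK- PBS, and was called in 9 of the 15 fits that left out a library.

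In a smaller set NestinTK+ GCV was the group apart. Among the 505 interaction genes there were 21 for which it was the odd group and also differed from the mean of the controls by the same thresholds. For 16 of them the controls did not differ among themselves at p under 0.05 (edgeR). Over all tested genes it was the odd group in 22%, and 0.979% differed from the controls by those thresholds. How many of all tested genes met both conditions was not counted. Of the 21, Col6a1, Wfs1, Meg3, Malat1 and Astn2 were named after their values were seen. That their NestinTK+ GCV mice stand apart is therefore not separate evidence. Col6a1, a chain of collagen VI (chr10:76708792-76726168, minus strand), read 31.4, 37.4, 38.8, 34 and 24.6 CPM in NestinTK+ GCV, 7.35, 13.7, 12.2 and 6.41 in NestinTK+ PBS, 9.52, 17.3 and 6.38 in NestinTK- GCV, and 10.5, 6.76 and 20.6 in NestinTK- PBS. Every NestinTK+ GCV mouse was above every control mouse. The interaction was 1.94 (SE 0.49, adjusted p = 0.0578), with a GCV effect of 1.75 in NestinTK+ and -0.18 in NestinTK- mice, and it was called with each library left out in turn. Wfs1, the endoplasmic reticulum protein wolframin (chr5:36966104-36989205, minus strand), read 146, 169, 152, 138 and 118 CPM in NestinTK+ GCV, 99.4, 73.4, 74.7 and 61.1 in NestinTK+ PBS, 50.0, 96.3 and 50.5 in NestinTK- GCV, and 74.1, 65.0 and 77.7 in NestinTK- PBS. Its NestinTK+ GCV mice were also all above the controls (interaction 1.04, adjusted p = 0.0745), and 5 of the 15 fits that left out a library put it at 0.88 to 0.99, under the 2-fold threshold.

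The abundant nuclear noncoding RNAs Meg3 and Malat1 were of the same kind. Meg3, an imprinted RNA, read 8440, 8550, 8440, 7260 and 9390 CPM in NestinTK+ GCV, 2690, 5260, 2850 and 2320 in NestinTK+ PBS, 6580, 5120 and 3230 in NestinTK- GCV, and 3420, 4010 and 4280 in NestinTK- PBS. All 5 NestinTK+ GCV mice exceeded every control mouse, and the interaction was 1.01 (adjusted p = 0.109), falling to between 0.78 and 0.99 in 7 of the 15 fits that left out a library. The 3 control groups also differed among themselves for Meg3 at p under 0.05, so it is not among the 16 genes above. Malat1 averaged 8654, 3484, 4619 and 4620 CPM in the order NestinTK+ GCV, NestinTK+ PBS, NestinTK- GCV, NestinTK- PBS. NestinTK- GCV mouse 1, at 8420 CPM, lay within the NestinTK+ GCV range of 7100 to 9490 CPM, and the Malat1 interaction of 1.31 missed the thresholds without NestinTK- GCV mouse 2 and without NestinTK- GCV mouse 3, where the log2 value was 0.99. Pabpn1, the nuclear poly(A)-binding protein, averaged 26 CPM in NestinTK+ GCV, 8.65 in NestinTK+ PBS, 6.44 in NestinTK- GCV and 14.3 in NestinTK- PBS (interaction 2.75, SE 0.53, adjusted p = 0.0211). Its controls differed among themselves at p under 0.05, and NestinTK- PBS mouse 3, at 20.8 CPM, was above the lowest NestinTK+ GCV mouse at 19.9. Astn2, an astrotactin of neuronal migration, was the named protein-coding gene of the set with a negative interaction and the lowest p, at -2.43, averaging 2.07 CPM in NestinTK+ GCV and 4.47 to 7.74 CPM in the controls.

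No gene of the insulin-like growth factor (IGF) axis or of neurogenesis that the study turns on was called. Igf1r, the IGF1 receptor, averaged 76.8 CPM in NestinTK+ GCV, 82.6 in NestinTK+ PBS, 58.9 in NestinTK- GCV and 86.8 in NestinTK- PBS (interaction 0.45, SE 0.22, adjusted p = 0.344). Igfbpl1, an IGF-binding protein of neuroblasts, read 2.82, 9.80, 3.70, 5.11 and 8.97 CPM in NestinTK+ GCV, 6.30, 15.5, 8.92 and 8.27 in NestinTK+ PBS, 8.43, 14.3 and 5.90 in NestinTK- GCV, and 10.2, 10.9 and 13.3 in NestinTK- PBS. GCV and PBS mice overlapped in each genotype, and the interaction was -0.39 (SE 0.54, adjusted p = 0.798, edgeR). All NestinTK+ GCV mice were below all NestinTK- PBS mice, and NestinTK+ GCV was the odd group. Its difference from the mean of the controls was -0.74 (adjusted p = 0.287, edgeR). Igf1, the neuroblast gene Dcx and the stem cell gene Nes had interactions of -0.64, 0.26 and -0.95, with adjusted p = 0.706, 0.759 and 0.643. Of 39 tested genes of IGF and insulin signalling 0 were called by edgeR, and 7 had an unadjusted p under 0.05. The 20 neuroblast genes held 0 calls, and the 20 genes of stem and transit-amplifying cells held 1, the fatty acid binding protein Fabp7 (1.86, adjusted p = 0.125), which missed the threshold without NestinTK+ GCV mouse 2, NestinTK- GCV mouse 1 or NestinTK- PBS mouse 1.

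The calls in the cell-type lists are to be read against the 2.13% higher and 1.15% lower of all tested genes. The spiny neuron lists held 1 call of 9 for the direct pathway (Slc35d3), 0 of 8 for the indirect pathway and 1 of 26 for shared identity (Ido1, 2.00). The 20 genes of striatal interneurons held Cck and Elavl4, both lower, and the 20 astrocyte genes held Gjb6, a connexin, at -1.19. Elavl4 missed the p threshold without NestinTK- GCV mouse 3, and Gjb6 was at -0.94 without NestinTK+ PBS mouse 4. The Slc35d3 call was lost without NestinTK+ GCV mouse 3, NestinTK- PBS mouse 1 or NestinTK- PBS mouse 3, and the Ido1 call without NestinTK- PBS mouse 1. Col1a2 was the only call among 17 mural and fibroblast genes, at 1.82, and missed the threshold in 6 of the 15 fits that left out a library. There were 0 calls by edgeR among 20 oligodendrocyte, 12 oligodendrocyte precursor, 18 microglia, 14 microglial activation, 18 endothelial, 10 choroid plexus, 10 septal and pallidal, 9 blood cell and 27 heat shock genes. The p53 target list, of genes that respond to DNA damage, held 1 call of 23, Sesn1 (1.71, adjusted p = 0.049), with NestinTK- GCV the low group at 9.52 to 19.4 CPM against 18.1 to 48.6 CPM in the others.

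Single mice set much of the count. Genes called higher were selected in part for low values in NestinTK- GCV or NestinTK+ PBS, and genes called lower for high values there. Counts of lowest and highest values among them thus follow partly from the selection, and the all-gene shares are no neutral background. NestinTK- GCV mouse 2 had the lowest of the 15 values in 183 of the 328 higher genes (55.8%), against 10.1% of all tested genes. Without it 210 genes were called higher, and without NestinTK- PBS mouse 2, whose median deviation over the higher genes was -0.18 where those of its group mates were 0.56 and 0.52, 533 were. The number at an adjusted p under 0.05 (edgeR, Benjamini-Hochberg) ran from 0 without NestinTK- PBS mouse 3 to 549 without NestinTK- PBS mouse 2. It was within 1.5 times the full count of 126 only when NestinTK+ PBS mouse 3 (90) or NestinTK- GCV mouse 1 (118) was left out. It was 1 without NestinTK- PBS mouse 1, 2 without NestinTK+ GCV mouse 1, 4 without NestinTK- GCV mouse 2, and 13 without NestinTK+ GCV mouse 2 or NestinTK+ PBS mouse 2. Leaving out NestinTK+ GCV mouse 3, NestinTK+ PBS mouse 1 or NestinTK+ GCV mouse 4 gave 28, 52 and 71. The count was 212 without NestinTK+ GCV mouse 5, 214 without NestinTK- GCV mouse 3 and 476 without NestinTK+ PBS mouse 4. Higher calls also fell to 215 without NestinTK- PBS mouse 1. For the lower genes, NestinTK+ PBS mouse 4 had the highest value in 66 of 177 (37.3%, against 14.5% of all tested genes) and NestinTK- GCV mouse 3 in 48 (27.1%, against 5.54%). Lower calls numbered 122 without NestinTK- GCV mouse 3 and 246 without NestinTK- PBS mouse 2. The share of interaction genes with NestinTK- GCV as the odd group was 52.8 to 81.9% with single libraries left out. Of the 67 called genes chosen for naming by rule, 42 kept their call and direction with each library left out, Cdk9, Srsf1, Rpl30, Id4, Mpi, mt-Tq and Col6a1 among them.

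**Figure D5:**
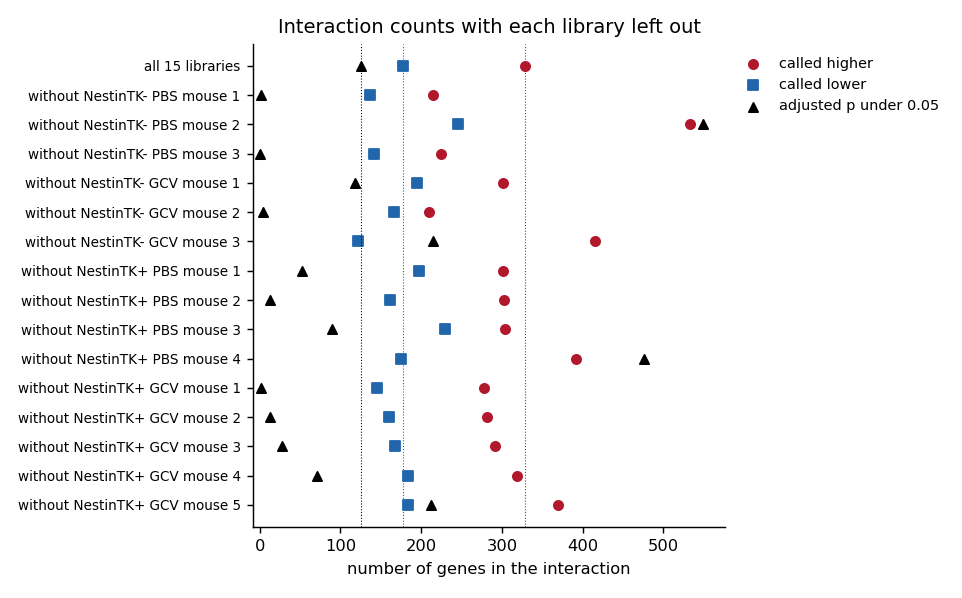
Number of interaction genes (x axis) with each mouse left out in turn (y axis), for genes called higher, genes called lower and genes at an adjusted p under 0.05, with dotted lines at the counts with all 15 libraries. Higher calls fall to 210 without NestinTK- GCV mouse 2 and rise to 533 without NestinTK- PBS mouse 2.

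The same contrast in the SVZ libraries of the same mice called 137 of 16375 genes (0.837%), 73 higher and 64 lower, with 0 at an adjusted p under 0.05 and 833 at an unadjusted p under 0.05 (edgeR). By the methods the SVZ libraries were made with a SMART-Seq kit and the striatum libraries with the QuantSeq 3′ kit. Tissue and library method therefore cannot be told apart in this comparison. The biological coefficient of variation was 0.913 in the SVZ and 0.225 in the striatum, so the SVZ libraries could show only larger differences. Of the 328 genes called higher in striatum 309 were tested in SVZ, where 168 (54.4%) had a positive interaction, against 51.1% of all genes tested in both, and 2 were called in the same direction and 1 in the opposite one. Of the 177 called lower, 165 were tested and 88 (53.3%) were negative, against 48.9%, with 2 called. In SVZ the interaction was 0.09 for Cdk9, -0.10 for Rpl30, -0.11 for Col6a1 and -0.11 for Wfs1. Meg3 was 1.19 there (adjusted p = 0.942). Igfbpl1 averaged 0.0952 CPM in NestinTK+ GCV SVZ and 9.75 to 19.6 CPM in the other SVZ groups. It was called there by the same thresholds although its adjusted p was 0.942 (edgeR). In striatum its GCV and PBS mice overlapped in each genotype.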

How the data were processed

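Dissected striatum was sequenced as QuantSeq 3′ libraries, single end. The authors trimmed reads with Trimmomatic (0.36 in the submitters' processing notes), aligned them to mm10 with STAR 2.5.3a and counted them over Gencode genes with featureCounts. The deposited values are raw counts per gene. The strand setting is not given in the sources used here, so overlapping genes are uncertain.

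From these counts, genes above 1 CPM in at least 3 libraries were kept, scaled by TMM and fitted with edgeR 4.0.16 (quasi-likelihood test, 4 groups, R 4.3.3), with Benjamini-Hochberg adjustment. A prior count of 2 was used for log2 CPM levels only, and fold changes were fitted with the edgeR default. The call thresholds (p of at most 0.01, 2-fold) are those of the study, which used limma. Alternatives were RLE, upper quartile and total scaling, DESeq2 1.42.0, limma-voom (limma 3.58.1), other filters, covariates, thinning to the lowest library total and leaving out each library. The fit was tested on data simulated with the fitted spread of each gene. There, 108 of 15219 unchanged genes were called (0.71%) by the same thresholds. Of 100 genes changed 2-fold 27 were called, and of 100 changed 4-fold 63. Coordinates are GRCm38, from GENCODE. Fold changes were fitted for all tested genes, also where a group had at most 3 counts in every library. Such genes count in the calls and list medians, but their fold changes are not printed.

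Genes were named by rule: up to 30 at adjusted p under 0.05; the 12 lowest p in each direction with a gene name; 2 clone or predicted names each way; called members of the lists; and Igfbpl1, Igf1, Igf1r, Dcx and Nes. The members and lists were chosen with earlier results of these data known. Ribosomal, respiratory chain, mitochondrial tRNA and splicing lists, and other genes named, were chosen after their values were seen. Column names gave each library a mouse, and 0 columns belonged to no sample. Mice were male and female per the methods, but sex is not in the labels. Labels give separate mice and no litters or days. Some genes that the naming rule selects are not reported here.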

Additional observations from a re-analysis of the deposited data

Results flagged for a closer look

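By a term for the difference itself, 505 genes had a GCV effect that differed between NestinTK+ and NestinTK- mice, as described above. By Dixon's test about 1 in 20 groups of 4 or 5 mice would hold a value far from the rest by chance. Among the genes named, 12 of 210 groups did, which is near that share. NestinTK+ PBS mouse 4 gave 6 of them, with 43.0 CPM for Gtf2h1, 141 for Elavl4, 55.0 for Kcnj3, 87.3 for Rorb, 109 for Igf1r and 356 for the receptor subunit Ramp3. NestinTK+ PBS mouse 2 read 63.9 CPM for Tbr1 and 294 for the pentraxin receptor Nptxr. NestinTK+ GCV mouse 1 read 169 CPM for Ice1 and 212 for Grik5, and NestinTK+ GCV mouse 5 read 143 for Map2k1 and 41.5 for Rpl35a. Among the lists 4 of 62 groups held such a value, also near the share by chance. NestinTK+ PBS mouse 4 stood apart with a mean log2 CPM of 4.33 for choroid plexus and 4.48 for neuroblast genes, NestinTK+ PBS mouse 3 with 4.21 for immediate early genes, and NestinTK+ GCV mouse 3 with 5.96 for heat shock genes. The causes were not tested.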

How the results depend on the processing

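No paired analysis was possible because each striatum library comes from a different mouse and the labels pair none across groups. Of the 67 called genes chosen by rule, 37 kept call and direction in every alternative. By the first digits of their labels all NestinTK+ GCV mice were of the 40 series and all NestinTK- PBS mice of the 34 series. The NestinTK+ PBS and NestinTK- GCV groups held both, so mouse number series and group were partly confounded. Genes at an adjusted p under 0.05 numbered 126 with all libraries, 485 with DESeq2, 816 with limma-voom quality weights, 673 with no filter, 2 with the mouse number series, the first digits of the labels (34 or 40), as a covariate, 0 with the log2 library total, 3 with the cortical list level and 635 without NestinTK+ PBS mouse 4 and NestinTK- GCV mouse 3, the last pair of settings being chosen after seeing the data. Higher calls numbered 505 with quality weights, 213 with the log2 total, 520 without those mice, 538 at any fold and 114 at p of at most 0.001. Lower calls numbered 280 with no filter, 110 with the number series, 375 at any fold and 50 at p of at most 0.001. NestinTK+ calls were 318 with no filter, 121 above 5 CPM, 87 with the log2 total and 108 without those mice. Interaction genes also called against the controls were 61, 20, 18 and 6 with no filter, 5 CPM, the number series and the log2 total. Controls differed in 1460 genes with no filter, and NestinTK- GCV was odd in 80.2% without those mice (52.8 to 81.9% with single libraries left out). Leaving out single libraries gave 210 to 533 higher, 122 to 246 lower, 0 to 549 adjusted, 106 to 288 NestinTK+, 210 to 594 NestinTK-, 19 to 42 shared and 369 to 1160 control calls. Sign changed for Tbr1 (0.31), Nr4a2 (0.27) and Neurod2 (0.90) with the cortical covariate and Igfbpl1 (0.02286, range -0.645 to 0.02286 with single libraries left out) without NestinTK- GCV mouse 2. Tbr1 and Neurod2 are themselves members of the list behind the cortical covariate. Other causes were not tested.

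The low sequencing depth limits genes near 1 CPM, and in 47 interaction genes a group had at most 3 counts in every library. Library numbers follow GCV and PBS, so an order effect and treatment cannot be told apart.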
